A study of Mus musculus with 16 samples.

Results

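The striatum of male R6/2 mice was compared with that of non-transgenic (NT) male mice by long-read RNA sequencing, with the number of count files per sample held as a term in the model. The comparison took in all striatal samples of the series, 8 of 16, with 4 samples of each genotype. R6/2 is a mouse line on a mixed C57BL/6 and CBA background that carries a transgene of exon 1 of human HTT with an expanded CAG repeat under the human HTT promoter, and NT mice are controls without the transgene. All were 3 months old, an age at which R6/2 mice show symptoms. NT replicates 1 and 2 and R6/2 replicates 2 and 3 were deposited as 2 count files each, which were summed, and the other 4 samples as 1 file each. The number of files is therefore balanced over genotype. Nothing in the labels ties a sample number to a litter or a day, and p values measure the spread between these samples.

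Most striatal neurons are spiny projection neurons, inhibitory cells that receive glutamate input from the cortex and thalamus and dopamine input from the midbrain. One class carries the D1 dopamine receptor with the peptide precursors Tac1 and Pdyn, and the other carries the D2 receptor with Adora2a and Penk. Dopamine and adenosine receptors in these cells raise or lower cyclic AMP through the adenylyl cyclase Adcy5. Protein kinase A then phosphorylates DARPP-32, the product of Ppp1r1b, which turns it into an inhibitor of protein phosphatase 1. Loss of striatal projection neuron transcripts is a known feature of Huntington's disease (HD) and of its mouse models.

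Iso-seq (PacBio) sequences whole cDNA molecules, and a single read thus lists the exons of 1 transcript. Striatal samples held 317050 to 1496196 reads, of which 251336 to 1349108 were counted for genes. The mean isoform length per read was 2142 to 2225 nt in the samples of 2 files and 1620 to 1886 nt in those of 1 file, and mitochondrially encoded genes took 0.408 to 0.852% and 1.42 to 3.28% of reads. The level of 2326 of the 7656 tested genes (30.4%) differed between samples of 1 and of 2 files (edgeR quasi-likelihood test, adjusted p under 0.05). Pcp4, a calmodulin-binding peptide gene chosen as an example after its values were seen, was at 818, 963, 4448 and 9281 CPM in the NT samples and 1356, 329, 386 and 1993 CPM in the R6/2 samples, given in the order of replicates 1 to 4 as are all values per sample hereafter. CPM are counts scaled to a common depth, with TMM-normalized library sizes. Within samples of the same number of files, every NT value of Pcp4 was above every R6/2 value (log2 fold change -1.68 ± 0.26 (SE), adjusted p = 0.0023). The 16 markers of striatal projection neurons were all measured in all samples, and Slc17a7, the vesicular glutamate transporter gene of cortical excitatory neurons, was at most at 9.55 CPM and at 0 in 1 of 8 samples. Neurod6, another cortical excitatory marker, was at 25.3 CPM in R6/2 replicate 4 and at 0 to 11.9 CPM in the other samples. The sum of these cortical markers was 225 CPM in R6/2 replicate 4, 156 to 159 CPM in the other R6/2 samples and 208 to 281 CPM in NT samples. NT replicate 3 stood apart in the markers of ependyma and choroid plexus, whose sum was 10562 CPM there, 300.4 to 578 CPM in the other NT samples and 397 to 699 CPM in R6/2 samples. Most of it was Ttr, the transthyretin gene of the choroid plexus, at 9729 CPM. Counts over gene lists are therefore given without NT replicate 3 as well. The labels could not be checked by the transgene, since these counts are of mouse genes. Mouse Htt had 10, 12, 6 and 5 reads in the NT samples and 3, 9, 8 and 5 reads in the R6/2 samples, which left it below the filter on low counts.

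Transcripts that differed in R6/2 striatum were mostly lower, and they included markers of striatal projection neurons. Of 7656 genes tested, 293 were lower in R6/2 striatum (3.83%) and 38 were higher (0.496%), and 1350 genes had an unadjusted p under 0.05. At least a 2-fold decrease was seen for 196 genes and at least a 4-fold decrease for 26, whereas 15 genes were at least 2-fold higher. In 276 of the 293 lower genes and 36 of the 38 higher genes the genotypes did not overlap within samples of 1 file or within samples of 2 files. Among all tested genes, 737 (9.63%) were lower and 547 (7.14%) were higher without such an overlap. The median log2 fold change of all tested genes was -0.0019, and 3844 were below 0. Without the number of files as a term, 39 genes were lower and none higher, with 760 genes at an unadjusted p under 0.05. Leaving out 1 sample gave 142 genes without R6/2 replicate 2, 179 without R6/2 replicate 1, 182 without R6/2 replicate 4, 188 without R6/2 replicate 3, 198 without NT replicate 3 and 217 without NT replicate 2, against 374 and 392 without NT replicates 1 and 4.

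**Figure D1:**
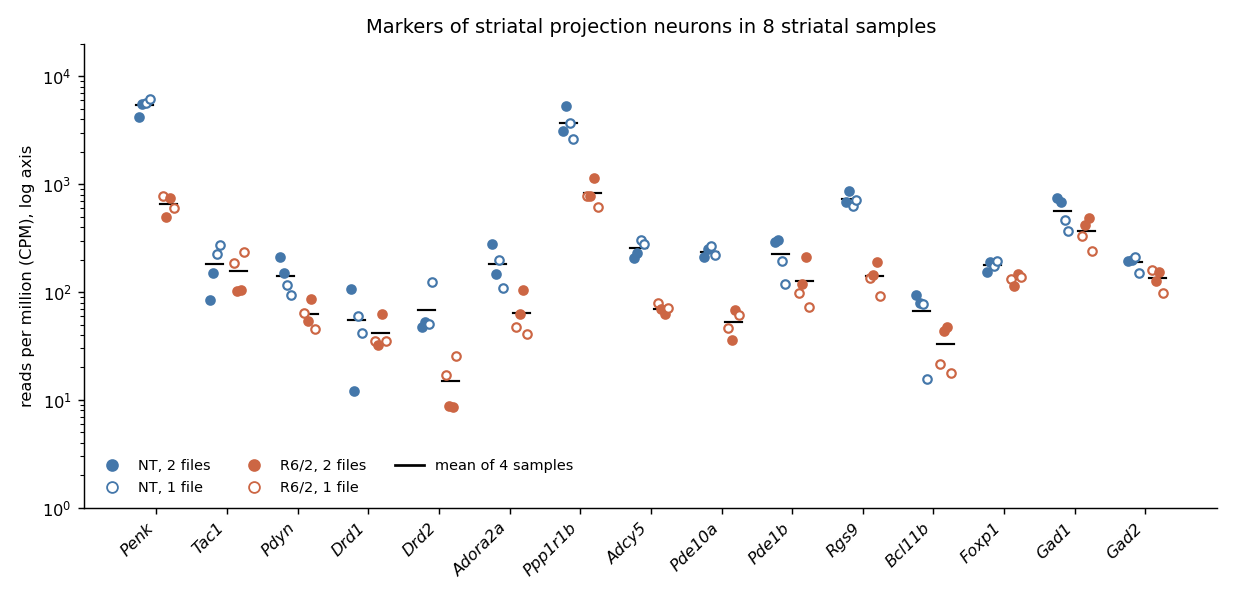
CPM of 15 of the 16 projection neuron markers in each striatal sample (log axis), with NT and R6/2 side by side, filled points for samples of 2 files, open points for samples of 1 file and a bar at the mean of 4 samples. Penk falls from between 4168 and 6159 CPM in NT to between 495 and 777 CPM in R6/2, whereas Tac1 and Drd1 overlap between the genotypes.

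Of the 16 projection neuron markers, 10 were lower in R6/2 mice (62.5%, against 3.83% of all tested genes) and none higher, with a median log2 fold change of -1.14. Their summed level was 11467 to 15220 CPM in NT and 2717 to 4283 CPM in R6/2 samples. In bulk tissue, fewer cells of a type and less RNA per cell cannot be told apart. The test without NT replicate 3 left 8 of the 16, and that without the number of files as a term 5. The share of 3.83% is the one to set beside the lower genes of each list below. For higher genes it is 0.496%, so a list without a higher gene is common. Penk, the proenkephalin gene, was at 4168, 5599, 5680.4 and 6159 CPM in the NT samples and 777, 495, 739 and 605 CPM in the R6/2 samples. All R6/2 values were below the lowest NT value, an 8.23-fold decrease (log2 fold change -3.04 ± 0.20 (SE), adjusted p = 7.8e-06). Pdyn, the dynorphin precursor gene, was at 210.2, 149, 117 and 93.8 CPM in the NT samples and 63.3, 53.5, 87.1 and 45.5 CPM in the R6/2 samples. The genotypes did not overlap, but the highest R6/2 sample was close to the lowest NT sample (log2 fold change -1.19 ± 0.21 (SE), adjusted p = 0.0066). Tac1, which encodes substance P, was at 84.8, 151, 227 and 271 CPM in the NT samples and 185, 102, 104 and 235 CPM in the R6/2 samples. These ranges overlapped and Tac1 did not pass the test (log2 fold change -0.22 ± 0.19 (SE), adjusted p = 0.61). The D1 receptor gene Drd1 was at 106, 12, 60.2 and 41.7 CPM in the NT samples and 35.5, 32.1, 63.2 and 35.4 CPM in the R6/2 samples, with NT replicate 2 below every R6/2 sample (log2 fold change -0.37 ± 0.50 (SE), adjusted p = 0.79). The other markers that did not pass were Bcl11b (log2 fold change -1.09 ± 0.29 (SE), adjusted p = 0.051), Gad1, Gad2 and Foxp1. Bcl11b encodes a transcription factor of these neurons, and Gad1 and Gad2 encode the enzymes of GABA synthesis.

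Of 13 neuropeptide precursor genes tested, 3 were lower in R6/2 mice (23.1%) and none higher (median log2 fold change -0.32). Chgb, which encodes the granin secretogranin-1, was the third beside Penk and Pdyn, at 182 to 268 CPM in NT and 136 to 164 CPM in R6/2 samples (log2 fold change -0.62 ± 0.16 (SE), adjusted p = 0.043). Of these genes, 2 passed without NT replicate 3 and 1 without the number of files as a term.

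Receptors of striatal neurons were lower in 7 of 12 tested genes (58.3%), with none higher and a median log2 fold change of -1.49. Hrh3, the histamine H3 receptor gene, was at 130.2, 149, 144 and 156 CPM in the NT samples and 27.8, 16.5, 22 and 25.3 CPM in the R6/2 samples. Each R6/2 sample was far below each NT sample, a 6.44-fold decrease (log2 fold change -2.69 ± 0.19 (SE), adjusted p = 8.8e-06). Drd2 was at 47.8, 52.6, 50.2 and 125 CPM in the NT samples and 17, 8.75, 8.61 and 25.3 CPM in the R6/2 samples. NT replicate 4 was the highest, and all R6/2 samples lay below all NT samples (log2 fold change -2.22 ± 0.31 (SE), adjusted p = 0.0015). The orphan receptor genes Gpr83 and Gpr6 fell 4.50-fold (log2 fold change -2.17 ± 0.23, adjusted p = 0.00020) and 3.48-fold (log2 fold change -1.80 ± 0.22, adjusted p = 0.00058). Cnr1, the CB1 cannabinoid receptor gene, was at 21.7 to 96.1 CPM in NT and 7.59 to 16.3 CPM in R6/2 samples (log2 fold change -2.25 ± 0.43, adjusted p = 0.010). Adora2a, the striatal adenosine receptor gene, passed as well, at 109 to 281 CPM in NT and 40.5 to 104 CPM in R6/2 samples (log2 fold change -1.55 ± 0.26, adjusted p = 0.0047). With NT replicate 3 left out, 6 of the 12 passed, and 3 did without the number of files as a term.

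Of 31 genes of cyclic nucleotide and DARPP-32 signalling, 10 were lower (32.3%) and none higher (median log2 fold change -0.61), 7 were lower without NT replicate 3 and 5 without the number of files as a term. Adcy5 was at 208, 229, 301 and 281 CPM in the NT samples and 78.8, 69, 62.2 and 70.8 CPM in the R6/2 samples. All R6/2 samples lay below all NT samples and close together (log2 fold change -1.84 ± 0.15 (SE), adjusted p = 2.4e-05). Pde10a, a phosphodiesterase that degrades cyclic AMP and cyclic GMP in projection neurons, was at 210.2, 253, 267 and 219 CPM in the NT samples and 46.3, 36, 68.9 and 60.7 CPM in the R6/2 samples. The decrease was 4.53-fold (log2 fold change -2.18 ± 0.21 (SE), adjusted p = 0.00012). Ppp1r1b, the DARPP-32 gene, was at 3141, 5374, 3738 and 2631 CPM in the NT samples and 785, 782, 1154 and 615 CPM in the R6/2 samples. All R6/2 samples lay below all NT samples, and the gene fell 4.47-fold (log2 fold change -2.16 ± 0.23 (SE), adjusted p = 0.00020). Arpp21, which encodes another cyclic AMP-regulated phosphoprotein, fell 2.91-fold (log2 fold change -1.54 ± 0.17, adjusted p = 0.00026). Pde1b, a calmodulin-dependent phosphodiesterase gene, was at 294, 305, 192 and 119.8 CPM in the NT samples and 98.8, 118, 213 and 73.4 CPM in the R6/2 samples. Here R6/2 replicate 3 lay above NT replicates 3 and 4, but the genotypes were apart within numbers of files (log2 fold change -0.87 ± 0.21 (SE), adjusted p = 0.032). Also lower were Pde2a, the PP1 catalytic subunit genes Ppp1ca (-1.24) and Ppp1cb (-0.61), the PP1 inhibitor gene Ppp1r1a (-1.91) and Arpp19 (-1.52), all values being log2 fold changes.

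RGS proteins shorten G protein signals. Of 13 tested genes of this family and its partners, 9 were lower (69.2%), none higher, and the median log2 fold change was -0.98. Rgs9, the striatal member that acts on D2 receptor signalling, was at 684, 863, 634 and 709 CPM in the NT samples and 136, 144, 190.4 and 91.1 CPM in the R6/2 samples. It fell 5.15-fold with no overlap (log2 fold change -2.37 ± 0.19 (SE), adjusted p = 2.4e-05). Rgs4 was at 339, 229, 232 and 198 CPM in the NT samples and 38.6, 64.2, 124 and 55.6 CPM in the R6/2 samples, and R6/2 replicate 3 was the highest of its genotype (log2 fold change -1.85 ± 0.24 (SE), adjusted p = 0.00093). Genes of both proteins that anchor or stabilize Rgs9 and its relatives were lower as well, Rgs7bp by 2.34-fold (log2 fold change -1.23 ± 0.17, adjusted p = 0.0011) and Gnb5 by 1.98-fold (log2 fold change -0.98 ± 0.18, adjusted p = 0.0069). Rgs2, Rgs8, Rgs10, Rgs12 and Rgs14 made up the rest, with log2 fold changes of -1.57 (Rgs14) to -0.87 (Rgs8). The count of lower genes was 7 of 13 without NT replicate 3, 5 without R6/2 replicate 3, without R6/2 replicate 4 or with the replicate number as a block, and 1 without the number of files as a term. Rgs19, which is on no pathway list used here and was among the higher genes, is described with them below.

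Regulators of small GTPases followed with 6 lower genes of 22 (27.3%; median log2 fold change -0.60), none higher, 6 without NT replicate 3 and 1 without the number of files as a term. Rasgrp2, a calcium-sensitive exchange factor for Rap, was at 135, 152, 174 and 162 CPM in the NT samples and 38.6, 31.1, 43.1 and 17.7 CPM in the R6/2 samples. The genotypes were apart in all samples (log2 fold change -2.17 ± 0.21 (SE), adjusted p = 0.00015). Ngef, a guanine nucleotide exchange factor gene, was at 672 to 1729 CPM in NT and 334 to 720.5 CPM in R6/2 samples and was apart only within numbers of files (log2 fold change -1.24 ± 0.20 (SE), adjusted p = 0.0030). Rap1gap, Rasl11b, Rasl10a and Kalrn were the others, with log2 fold changes of -1.06, -1.66, -1.66 and -1.27.

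The calcium and calmodulin list held the most lower genes, 22 of 39 tested (56.4%), with none higher and a median log2 fold change of -0.85. Without NT replicate 3, 16 of 41 passed. The count was 14 without R6/2 replicate 1 or 3, 13 without R6/2 replicate 2, 10 without R6/2 replicate 4, 12 with the replicate block and 4 without the number of files as a term. Hpca, which encodes the neuronal calcium sensor hippocalcin, was at 5062, 6265, 5348 and 5409 CPM in the NT samples and 1983, 1619, 2585 and 1766 CPM in the R6/2 samples. It fell 2.78-fold (log2 fold change -1.47 ± 0.18 (SE), adjusted p = 0.00061). Itpr1, the IP3 receptor gene of the endoplasmic reticulum, fell 2.39-fold (log2 fold change -1.26 ± 0.16, adjusted p = 0.00089) and Atp2b1, a plasma membrane calcium pump gene, fell 2.88-fold (log2 fold change -1.53 ± 0.21, adjusted p = 0.0014). Camk4 was at 182, 183, 184 and 99 CPM in the NT samples and 54.1, 58.3, 78.5 and 70.8 CPM in the R6/2 samples. NT replicate 4 was below the other NT samples but above all R6/2 samples (log2 fold change -1.36 ± 0.20 (SE), adjusted p = 0.0017). Itpka, which encodes an IP3 kinase, was among the genes with the largest fitted decrease, yet its levels were uneven at 15.5, 252, 53.5 and 57.3 CPM in the NT samples and 17, 6.80, 12.4 and 12.6 CPM in the R6/2 samples. NT replicate 1 lay within the R6/2 range, NT replicate 2 was far above the rest, and the standard error was wide (log2 fold change -3.09 ± 0.73 (SE), adjusted p = 0.029). The kinase genes Camk2a, Camk2b, Camkk1, Camkk2 and Camkv, the calcineurin gene Ppp3ca and the pump genes Atp2a2 and Atp2b2 were lower too. The kinase inhibitor gene Camk2n1 had a large fitted decrease (log2 fold change -2.35 ± 0.57, adjusted p = 0.032) but passed in only 2 of the 8 fits that left out 1 sample. The remaining ones were Dgkb, Hpcal1, Nrgn, Pcp4, Pcp4l1, Plcb1, Prkcb and Ryr3.

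Channels and synaptic genes gave smaller shares. Of 26 channel genes 5 were lower (19.2%; median log2 fold change -0.59), and of 27 genes of glutamate receptors and their scaffolds 4 were lower (14.8%; median -0.53). Lower genes were 1 of 18 for GABA receptors and the inhibitory synapse (5.56%; median -0.20) and 1 of 30 for vesicle release (3.33%; median -0.21), shares near the 3.83% of all tested genes. None of these genes was higher. These counts without NT replicate 3 were 3 of 29, 4 of 27, 1 of 20 and 1 of 31. The channel count was also 3 without R6/2 replicate 2 or 3 and 2 without R6/2 replicate 4. That of glutamate genes was 2 without NT replicate 2, without R6/2 replicate 1 or with the replicate block and 1 without R6/2 replicate 2. Neither list held a called gene without the number of files as a term. Without NT replicate 4, 3 GABA and 4 vesicle release genes were lower, and the vesicle count was 2 without NT replicate 2 or R6/2 replicate 1, 3 or 4. Kcnip2, whose product binds Kv4 potassium channels, was at 207, 361, 150.5 and 104 CPM in the NT samples and 64.9, 69, 82.3 and 32.9 CPM in the R6/2 samples. It fell 3.25-fold (log2 fold change -1.70 ± 0.24 (SE), adjusted p = 0.0017). Kcnip3, Kcnab1, Cacna1e and Kcnk1 were the other channel genes. Gabrd, the delta subunit of extrasynaptic GABA-A receptors, was at 279, 369, 344 and 287 CPM in the NT samples and 95.8, 100.1, 111 and 101 CPM in the R6/2 samples. R6/2 samples lay within a narrow range far below NT (log2 fold change -1.65 ± 0.16 (SE), adjusted p = 0.00012). The lower glutamate synapse genes were Homer1, Ppp1r9b, Grm5 and Dlgap3, with log2 fold changes of -1.83, -1.14, -0.91 and -1.20. For vesicle release it was Unc13c (-1.11).

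Of 10 immediate early genes tested, transcripts induced by neuronal activity, 5 were lower (50%; median log2 fold change -1.07). The count was 2 of 12 without NT replicate 3, 3 without NT replicate 2, 2 without R6/2 replicate 1 or 4 or with the replicate block, and 1 without R6/2 replicate 2, without R6/2 replicate 3 or without the number of files as a term. Junb was at 112, 188, 171 and 177 CPM in the NT samples and 38.6, 61.2, 58.4 and 45.5 CPM in the R6/2 samples, with a wide gap between the genotypes (log2 fold change -1.63 ± 0.21 (SE), adjusted p = 0.00089). Klf10 (log2 fold change -1.34 ± 0.31, adjusted p = 0.026), Dusp1 (log2 fold change -1.13 ± 0.27, adjusted p = 0.032), Dusp6 and Homer1 were the others. Of 14 striatal transcription factor genes only Rarb and Rxrg, which encode retinoid receptors, were lower (14.3%; median -0.29). The count was 2 of 17 without NT replicate 3, 0 without R6/2 replicate 2 and 4 without NT replicate 4.

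Among 15 clock genes 3 were lower (20%; median log2 fold change -0.33), and these were Dbp and Tef, transcription factors of clock output, and Ciart, a repressor of the clock. Dbp was at 351 to 585 CPM in NT and 111 to 154 CPM in R6/2 samples, with no overlap, and fell 3.34-fold (log2 fold change -1.74 ± 0.19 (SE), adjusted p = 0.00021). Ciart was at 26.3, 30.8, 30.1 and 20.8 CPM in the NT samples and 1.54, 6.80, 7.65 and 7.59 CPM in the R6/2 samples, a level of few reads in R6/2 samples (log2 fold change -2.20 ± 0.35 (SE), adjusted p = 0.0030). Tef fell 2.12-fold (log2 fold change -1.09 ± 0.24, adjusted p = 0.022). In cholesterol metabolism 3 of 21 genes were lower (14.3%; median -0.35). Fdft1, squalene synthase, was at 93.8 to 162 CPM in NT and 53.1 to 74.6 CPM in R6/2 samples (log2 fold change -0.96 ± 0.16, adjusted p = 0.0046). Msmo1, of the same pathway, was lower (log2 fold change -0.87 ± 0.16, adjusted p = 0.0076), and so was Cyp46a1, which turns cholesterol over in neurons (log2 fold change -0.76 ± 0.17, adjusted p = 0.023). Without NT replicate 3, 2 of 15 clock and 2 of 23 cholesterol genes were lower, and 2 and 0 were without the number of files as a term. Without NT replicate 4, 5 cholesterol genes were lower.

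Other lists held few or no calls. No gene passed among 30 chaperone genes (median log2 fold change 0.13) or 10 genes of m6A writers, erasers and readers (0.34). Of 62 splicing regulator and RNA-binding protein genes (median 0.10), Rbfox3 (log2 fold change -0.77 ± 0.15, adjusted p = 0.010) and Rbfox1 (log2 fold change -0.89 ± 0.19, adjusted p = 0.017) were lower, a share of 3.23% that is near that of all tested genes. These neuronal splicing factors bind the same motif. The count was 1 without NT replicate 3, R6/2 replicate 1 or R6/2 replicate 4 and 0 without R6/2 replicate 2 or without the number of files as a term. Of 19 genes of huntingtin and its transport partners (median 0.08), the kinesin gene Kif5c was lower (log2 fold change -0.92 ± 0.17, adjusted p = 0.0069), and 1 of 19 (5.26%) was without NT replicate 3 too. Tardbp, the TDP-43 gene, was at 13.1, 16.5, 31.8 and 20.8 CPM in the NT samples and 32.4, 19.4, 30.6 and 37.9 CPM in the R6/2 samples. The genotypes overlapped over all samples, whereas both R6/2 values lay above both NT values within samples of 2 files and within samples of 1 file, and Tardbp did not pass the test (log2 fold change 0.54 ± 0.27 (SE), adjusted p = 0.32). Mettl3, the m6A writer gene, was at 22.7, 30.0, 25.1 and 10.4 CPM in the NT samples and 26.3, 15.6, 25.8 and 22.8 CPM in the R6/2 samples and did not pass either (log2 fold change -0.15 ± 0.29 (SE), adjusted p = 0.88), and its sign turned under some alternatives. No gene passed among 76 nuclear genes of oxidative phosphorylation, 15 mitochondrially encoded, 74 ribosomal protein or 35 proteasome genes, and without NT replicate 3 this held except for 1 ribosomal protein gene that was lower.

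**Figure D2:**
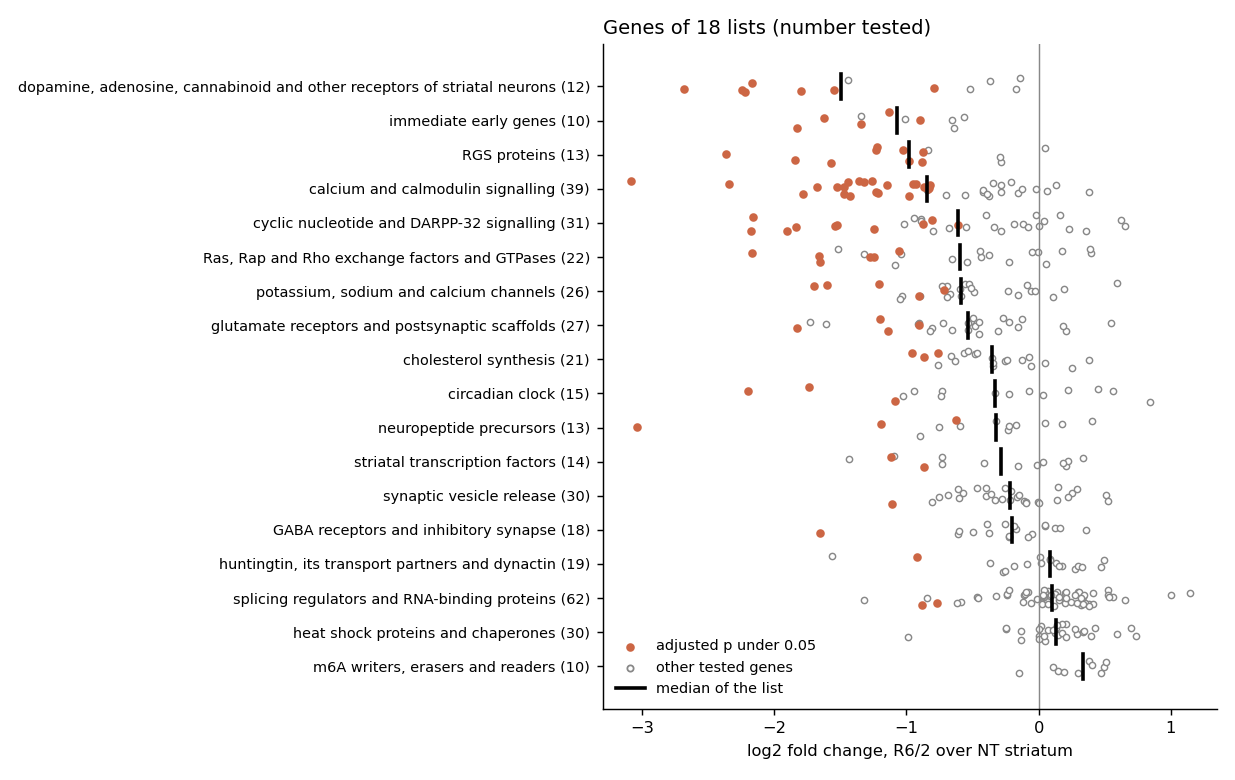
Log2 fold changes (R6/2 against NT) of the tested members of 18 pathway lists, with filled points for genes of adjusted p under 0.05 and a bar at the median of each list. Medians run from -1.49 for receptors of striatal neurons to 0.34 for m6A genes, and all filled points lie below 0.

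Over the 18 lists, 83 of 406 tested genes were lower and none higher, and 210 lower genes were on none of these 18 lists. Among all tested genes 3.83% were lower and 0.496% higher, so few higher genes could fall on these lists. The lists were written with earlier results of these data known, and higher genes such as Rgs19, Bag2 and Psme1 are on none of them. The strongest of the lower genes outside the lists, by the fitted decrease, was Abhd11os, a long noncoding RNA gene at chr5:135012114-135013253 (mm10). Abhd11os is listed as lower in HD266ssg, a gene set described below. It was at 16.7, 20.3, 60.2 and 125 CPM in the NT samples and 1.54, 1.94, 0.957 and 0 CPM in the R6/2 samples, where R6/2 replicate 4 held no read (log2 fold change -4.77 ± 0.53 (SE), adjusted p = 0.00026). Phkg1, a phosphorylase kinase subunit gene, was at 25.1, 19.5, 112 and 234 CPM in the NT samples and 15.4, 4.86, 0.957 and 7.59 CPM in the R6/2 samples. NT samples of 2 files were close to R6/2 replicate 1, and those of 1 file far above it (log2 fold change -3.41 ± 0.40 (SE), adjusted p = 0.00036). Cd4, known for its protein on T helper cells, was at 60.9, 45.1, 55.2 and 36.5 CPM in the NT samples and 4.63, 8.75, 7.65 and 7.59 CPM in the R6/2 samples, and its decrease was 6.86-fold (log2 fold change -2.78 ± 0.28 (SE), adjusted p = 0.00018). Syndig1l was at 95.5, 563, 75.2 and 115 CPM in the NT samples and 24.7, 25.3, 56.5 and 17.7 CPM in the R6/2 samples, with NT replicate 2 far above the others (log2 fold change -2.71 ± 0.51 (SE), adjusted p = 0.0095). Car12, a carbonic anhydrase gene, and Ddit4l, an mTORC1 inhibitor gene, fell 5.33-fold (log2 fold change -2.41 ± 0.37, adjusted p = 0.0024) and 5.10-fold (log2 fold change -2.35 ± 0.34, adjusted p = 0.0017).

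The 38 higher genes changed less than the strongest lower genes, with a largest fitted rise of 3.09-fold. Ece2, a peptide-processing metalloprotease gene, was at 32.2, 17.3, 10.0 and 15.6 CPM in the NT samples and 57.1, 55.4, 73.7 and 43 CPM in the R6/2 samples. All R6/2 samples lay above all NT samples (log2 fold change 1.63 ± 0.28 (SE), adjusted p = 0.0046). Bag2, an HSP70 co-chaperone gene, was at 13.1, 11.3, 5.02 and 5.21 CPM in the NT samples and 20.1, 33, 31.6 and 25.3 CPM in the R6/2 samples, a 2.97-fold rise (log2 fold change 1.57 ± 0.28 (SE), adjusted p = 0.0069). Rgs19 was at 26.3, 15, 13.4 and 26.1 CPM in the NT samples and 58.7, 48.6, 50.7 and 53.1 CPM in the R6/2 samples. R6/2 samples were close together and all above NT (log2 fold change 1.46 ± 0.26 (SE), adjusted p = 0.0058). Nfyb, a subunit of the transcription factor NF-Y, was at 33.4, 38.3, 46.8 and 57.3 CPM in the NT samples and 83.4, 95.3, 114 and 104 CPM in the R6/2 samples, again apart in all samples (log2 fold change 1.27 ± 0.20 (SE), adjusted p = 0.0031). These 4 genes passed in all 8 fits that left out 1 sample. The other 8 of the 12 with the largest rise (Cds2, Ifit3, Mthfd2, Parva, Smc2, Ermard, Gemin7 and Mri1) had log2 fold changes of 1.14 to 1.37 and passed in 0 to 6 of those fits. None of the higher genes named here passed without the number of files as a term. Among the 66 lower genes that the naming rule took, 42 passed in all 8 fits and 21 passed without that term.

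Of HD266ssg, a set of genes that others listed as altered in the striatum of several HD mouse models, 94 of the genes listed as lower were tested and 70 were lower here (74.5%, against 3.83% of all tested genes), with a median log2 fold change of -1.30. Of the genes listed as higher, 15 were tested and Rgs19 and Psme1, a proteasome activator gene, were higher (13.3%, against 0.496%), with a median of 0.72. Among those listed as lower, 59 of 97 passed without NT replicate 3, 46 of 95 without R6/2 replicate 2 and 23 of 94 without the number of files as a term. Among those listed as higher, 3 of 21 passed without NT replicate 3, 4 of 21 without NT replicate 4, 1 without NT replicate 2 or R6/2 replicate 1, 2 or 3, and 0 without the number of files as a term.

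Markers of other cell types were checked beside these genes. The share of lower genes among all tested genes, 3.83%, applies here too. Of 7 interneuron markers tested, 2 were lower (28.6%), and 1 of 9 was without NT replicate 3. Chat, the acetylcholine-synthesizing enzyme gene of cholinergic interneurons, was at 43, 67.6, 33.4 and 36.5 CPM in the NT samples and 7.72, 10.7, 14.4 and 7.59 CPM in the R6/2 samples. The genotypes did not overlap (log2 fold change -2.15 ± 0.27 (SE), adjusted p = 0.00062). Slc18a3, which was lower too (log2 fold change -1.54 ± 0.39, adjusted p = 0.044), lies within an intron of Chat, and its reads cannot be fully told apart. The summed interneuron markers were at 364 to 1027 CPM in NT and 152 to 739 CPM in R6/2 samples. Of 15 oligodendrocyte markers tested, Mal, Cldn11, Mobp and Ugt8a were lower and Apod was higher (26.7% and 6.67%; median log2 fold change -0.11). Only 1 was lower and none higher without NT replicate 3, without R6/2 replicate 1, 2 or 3 or with the replicate block, 2 were lower and none higher without NT replicate 1 or R6/2 replicate 4, and none was lower or higher without the number of files as a term. The summed level was 18243 to 34836 CPM in NT and 19039 to 24213 CPM in R6/2. Mal, a myelin lipid raft protein gene, was at 222, 228, 214 and 214 CPM in the NT samples and 108, 78.7, 104 and 126 CPM in the R6/2 samples (log2 fold change -1.11 ± 0.16 (SE), adjusted p = 0.0019). Of 15 astrocyte markers, Aldoc and Ndrg2 were lower (13.3%; median -0.44), with 1 lower without NT replicate 2, NT replicate 3 or any R6/2 sample, 5 lower without NT replicate 4, and sums of 10726 to 17238 and 7068 to 11818 CPM. Cst3 made up much of the astrocyte sum, at 3231 to 12094 CPM in NT and 3106 to 7738 CPM in R6/2 samples. In both genotypes Cst3 was higher in samples of 1 file than in those of 2 files. Endothelial and mural markers summed to 382 to 493 and 255 to 372 CPM, without overlap, and 1 of 8 (Igfbp7) was lower (12.5%), and 0 without NT replicate 3, R6/2 replicate 1 or R6/2 replicate 3. None of 13 microglial markers passed (774 to 1047 and 658 to 948 CPM), and none of 5 oligodendrocyte precursor markers (761 to 1173 and 936 to 1178 CPM). Most of the precursor sum was Bcas1, at 578 to 826 CPM, a gene also of myelinating oligodendrocytes. The precursor markers Pdgfra and Cspg4 were at only 0 to 10.1 and 1.67 to 5.74 CPM, so this sum says little about precursors. Of the cortical excitatory markers 2 of 14 were abundant enough to be tested and 1 was lower, also without NT replicate 3, but 0 without NT replicate 2 or R6/2 replicate 1, 2 or 3. Their sum was 208 to 281 CPM in NT and 156 to 225 CPM in R6/2. No thalamic or septal marker passed the filter (20.8 to 135 and 10.1 to 66.1 CPM), and no erythroid (216 to 360 and 214 to 741 CPM) or ependymal marker passed the test. The part of these shifts in the gene results was not tested.

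Samples of 1 file and of 2 files gave the same direction for nearly all called genes. Fitted within samples of 1 file and within samples of 2 files, 330 of the 331 genes had the same sign of log2 fold change. The calls rest on both sets of samples, so this is a description. The exception, Ccdc85b, had no read in samples of 1 file. Genes whose level differed by number of files made up 30.4% of tested and 29.9% of called genes. The difference between the genotype effects of the 2 sets was tested as an interaction, and 2 of 7656 genes (0.0261%) passed, with 258 at an unadjusted p under 0.05. They were the pseudogene Gm15772 and the ribosomal protein gene Rps3a1. The reads of such genes can be split between near-identical copies, so both are uncertain.

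**Figure D3:**
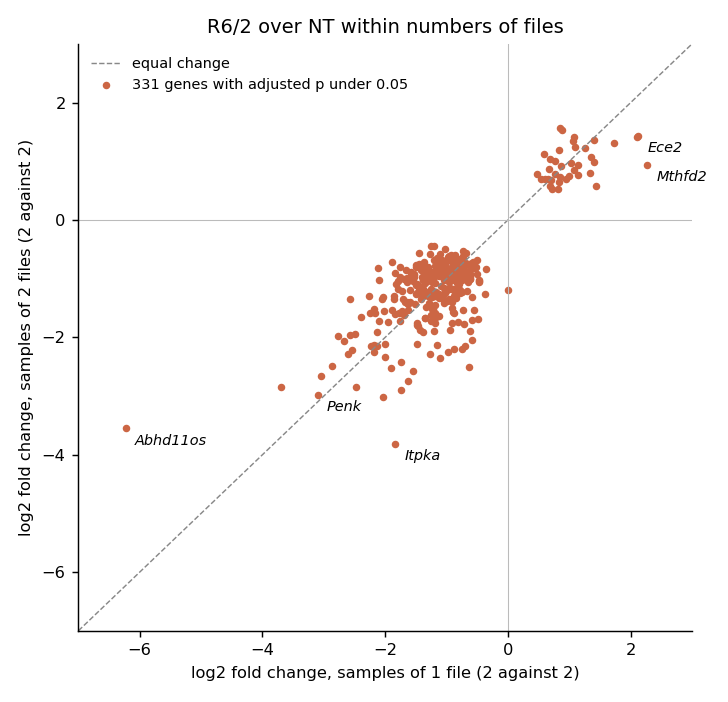
Log2 fold change of each of the 331 called genes in samples of 1 file (horizontal) and of 2 files (vertical), each 2 NT against 2 R6/2 samples. Apart from Ccdc85b, with 0 reads in samples of 1 file, every gene lies in the quadrant where both signs are the same.

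Lower genes had a higher median level in NT than higher genes or genes not called. Their medians of intron and mature length were close to those of genes not called. The median level in NT was 124 CPM for lower genes, 32.7 CPM for higher genes and 43.4 CPM for genes that were not called. By the call itself lower genes are high in NT and higher genes are low there, and genes with more reads pass more readily. The order of these levels thus follows in part from how the sets were chosen. Median total intron length was 15182, 10141.5 and 14941 nt, and median mature length 2524, 2240.5 and 2429 nt. The upper quartile of total intron length was further apart, at 48770, 27366.5 and 35809.5 nt in the same order. These are descriptions of the 3 sets and were not tested. Protein-coding genes made up 289 of the 293 lower and 36 of the 38 higher genes.

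Isoform shares within genes were tested apart from gene level, on known isoforms and on isoforms that join annotated splice sites in a new way (NIC) or hold an unannotated splice site (NNC). The mix of isoforms differed in 20 of 4438 genes (0.451%; edgeR diffSpliceDGE with Simes p values), and 298 genes had an unadjusted p under 0.05. Of these 20 genes, 11 (55.0%) were lower in level, against 4.10% of the 4438 genes tested, and 1 (Glb1) was higher. These 11 were 6.04% of the 182 lower genes tested for isoform usage. The sets compared here were not matched for read depth, on which both calls depend. Leaving out 1 sample gave 5 to 26 genes, with 5 without R6/2 replicate 2, 6 without NT replicate 3, 11 without R6/2 replicate 3 and 12 without R6/2 replicate 1. Without the number of files as a term, 3 genes passed.

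Tpm1, a tropomyosin gene that stabilizes actin filaments and is rich in alternative exons, had the smallest p. Its isoform ENSMUST00000113690, of 8 exons, made up 18.2, 14.1, 6.58 and 8.41% in the NT samples and 36.3, 46.5, 44.7 and 30.6% in the R6/2 samples of the complete reads of the gene. The share rose from 11.8% ± 5.33 to 39.5% ± 7.42 (SD, n = 4 per genotype), and no R6/2 sample reached down to the NT range (adjusted p = 1.2e-05). A further isoform of 8 exons, ENSMUST00000113686, rose from 5.36% ± 1.99 to 20.4% ± 2.81 (SD, n = 4 per genotype), whereas 2 isoforms of 9 exons fell, ENSMUST00000113687 from 21% ± 3.22 to 7.76% ± 0.992 (SD, n = 4 per genotype) and ENSMUST00000113693 from 26.9% ± 8.46 to 11% ± 1.94 (SD, n = 4 per genotype). Tpm1 held 62 to 398 complete reads per sample.

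In Camk2b, the beta subunit of calcium/calmodulin-dependent kinase II, an NIC isoform of 20 exons made up 16.9, 14.2, 14.9 and 11.6% in the NT samples and 50.7, 43.6, 44.8 and 39.1% in the R6/2 samples. The share of the known isoform of 21 exons, ENSMUST00000109813, went from 79.6% ± 4.38 to 51.4% ± 4.11 (SD, n = 4 per genotype). The samples of each genotype were close together, and Camk2b had 86 to 1112 complete reads per sample (adjusted p = 0.00011). In Arpp19, a phosphoprotein that inhibits protein phosphatase 2A when phosphorylated, the isoform ENSMUST00000168166 of 4 exons was at 24.4, 21.9, 21.8 and 17% in the NT samples and 53.1, 52.6, 53.7 and 56.7% in the R6/2 samples. The isoform ENSMUST00000166549 of 2 exons moved the other way, from 69.7% ± 3.10 to 29% ± 3.64 (SD, n = 4 per genotype) (adjusted p = 0.0016). The order of the isoforms was thus exchanged between the genotypes, in a gene whose level was also lower.

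Ppp3ca, the catalytic subunit of calcineurin, shifted toward ENSMUST00000070198, of 13 exons, from 4.97% ± 1.04 to 21.2% ± 4.01 (SD, n = 4 per genotype) (adjusted p = 0.0022). It differs from the main isoform by 1 exon. In Hnrnpdl, an RNA-binding protein that regulates its own splicing, an NIC isoform of 7 exons rose from 1.92% ± 1.45 to 13.1% ± 2.38 (SD, n = 4 per genotype) (adjusted p = 0.0022). Bcas1, a gene of myelinating oligodendrocytes, gained an NIC isoform of 9 exons, from 1.79% ± 0.454 to 6.07% ± 1.0 (SD, n = 4 per genotype) (adjusted p = 0.0046). In Copg1, a coatomer subunit gene, ENSMUST00000049966 of 5 exons rose from 20.8% ± 13.1 to 49.3% ± 19.6 (SD, n = 4 per genotype) with overlap between the genotypes (adjusted p = 0.0039). Small shares moved in Ngef, where an NNC isoform of 13 exons went from 0.245% ± 0.203 to 3.38% ± 1.01 (SD, n = 4 per genotype), in Camkv, where an NIC isoform went from 0.0257% ± 0.0513 to 1.76% ± 0.573 (SD, n = 4 per genotype), and in Penk, where ENSMUST00000070375 went from 0.587% ± 0.0992 to 2.31% ± 0.862 (SD, n = 4 per genotype). Glb1 and Vrk1 had only 1 to 41 and 2 to 25 complete reads per sample. Kcnip2, Minos1, Hpca, Aldoa, Mpv17l2, Mt3 and Ppp1r1b also passed.

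**Figure D4:**
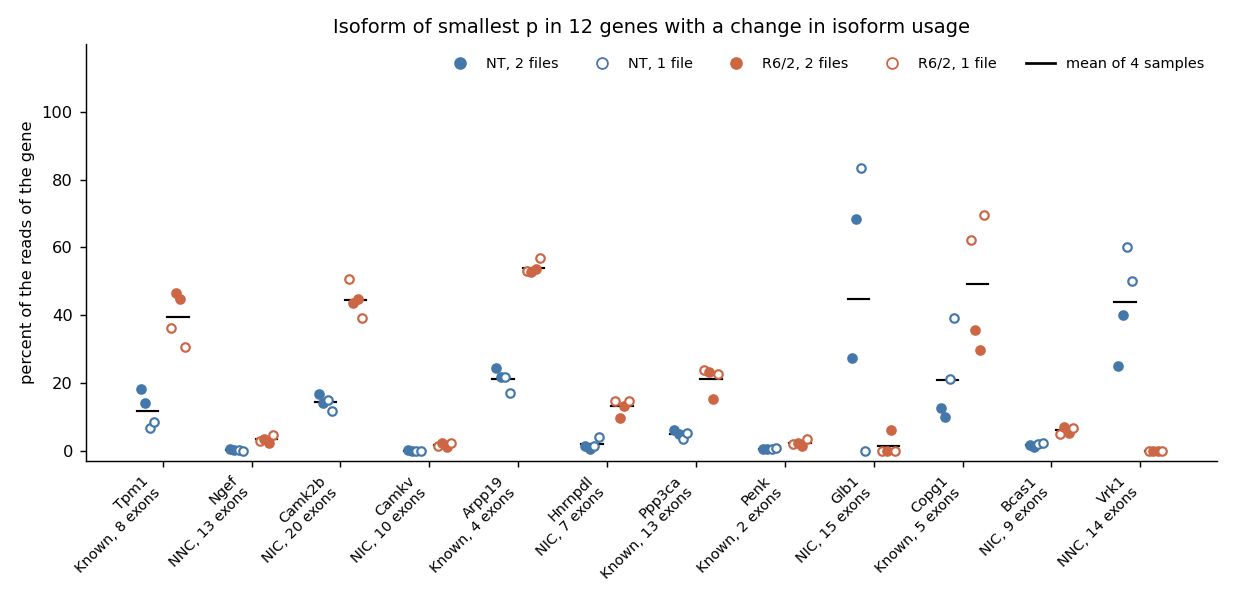
Percent of the complete reads of a gene on the isoform with the smallest p, for each striatal sample and for 12 genes, with filled points for samples of 2 files and open points for samples of 1 file. Camk2b and Arpp19 are apart by about 30 percentage points, and Glb1 and Vrk1 rest on few reads.

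The study asked whether exons are skipped more often in HD striatum, which these reads address for annotated cassette exons. Inclusion, the percent of reads that hold an exon among those of known isoforms that either hold or skip it, was tested for 984 exons in 766 genes. Of these, 11 exons differed (1.12%), 9 with lower and 2 with higher inclusion in R6/2 mice, and 51 had an unadjusted p under 0.05. Over all 984 exons the difference was below 0 for 530 (53.9%). Without the number of files as a term 1 exon passed, and leaving out 1 sample gave 2 to 11 exons, with 2 without NT replicate 3 or R6/2 replicate 3, 3 without R6/2 replicate 1 or 2, 5 without NT replicate 1 and 6 without R6/2 replicate 4. The genes of 4 of the 11 exons were lower in level (Ppp3ca, Kcnip2, Arpp21 and Camkk2), and Ppp3ca and Kcnip2 also differed in isoform usage.

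The 6 exons below are coding and are shown because skipping them joins the coding exons around them. Capitals mark the exon, and lower case the 12 bases of the neighbouring exons on either side in the isoform that holds it, read 5′ to 3′ along the gene (mm10).
Ppp3ca, chr3:136932011-136932040, plus strand: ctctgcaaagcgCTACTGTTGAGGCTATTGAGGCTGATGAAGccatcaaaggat
Kcnip2, chr19:45796279-45796332, minus strand: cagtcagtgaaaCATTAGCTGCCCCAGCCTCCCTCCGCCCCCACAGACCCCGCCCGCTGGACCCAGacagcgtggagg
Sars, chr3:108427861-108427932, minus strand: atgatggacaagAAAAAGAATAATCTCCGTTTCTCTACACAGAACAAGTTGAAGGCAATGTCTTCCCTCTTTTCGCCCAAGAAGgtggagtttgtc
Camkk2, chr5:122736988-122737030, minus strand: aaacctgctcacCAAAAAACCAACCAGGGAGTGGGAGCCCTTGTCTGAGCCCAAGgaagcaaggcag
Dbn1, chr13:55476636-55476773, minus strand: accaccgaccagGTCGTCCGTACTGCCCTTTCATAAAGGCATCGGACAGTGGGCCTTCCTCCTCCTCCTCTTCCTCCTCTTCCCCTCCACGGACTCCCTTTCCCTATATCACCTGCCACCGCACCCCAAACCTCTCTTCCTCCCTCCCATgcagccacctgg
Kcnab2, chr4:152434782-152434823, minus strand: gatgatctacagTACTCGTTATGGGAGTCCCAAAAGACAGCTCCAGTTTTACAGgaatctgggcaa

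Those of Ppp3ca (30 nt), Kcnip2 (54 nt), Sars (72 nt), Dbn1 (138 nt) and Kcnab2 (42 nt) are multiples of 3 in length, and the annotated isoforms with and without them begin and end their coding sequence at the same places. The exon of Camkk2 (43 nt) is not, and the annotated coding end differs when it is skipped. Of the 11 exons, 7 had a length divisible by 3, against 50.1% of the exons tested, and their median length was 54 nt against 93 nt.

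The exon of Ppp3ca lies next to the last exon and was included in 93.8, 94.9, 96.3 and 94.6% in the NT samples and 76.2, 76.8, 84.6 and 77.1% in the R6/2 samples of reads. All R6/2 samples were below all NT samples, with R6/2 replicate 3 nearest to them (difference -16.2 percentage points, adjusted p = 2.1e-06). Between 83 and 2049 reads per sample covered it, and it was the only exon that passed under every alternative run for it. Kcnip2 inclusion was 90.3, 92.6, 88.1 and 93.8% in the NT samples and 63.6, 64.4, 63.8 and 100% in the R6/2 samples. R6/2 replicates 1 to 3 were alike, and R6/2 replicate 4 was at full inclusion with only 11 reads (difference -18.2 percentage points, adjusted p = 0.013). In Sars, the seryl-tRNA synthetase gene, inclusion was 27.6, 19.6, 20.8 and 17.9% in the NT samples and 2.27, 10.8, 9.14 and 13.6% in the R6/2 samples. The long form was the minor one in both genotypes and was rarer in R6/2 samples (difference -12.5 percentage points, adjusted p = 0.018).

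Inclusion of the exon of Camkk2, a kinase upstream of CaM kinases and AMPK, went from 98.9% ± 0.991 to 89% ± 4.10 (SD, n = 4 per genotype; adjusted p = 0.027), with 8 to 261 reads per sample. Dbn1 encodes the actin-binding drebrin, whose longer form is the adult neuronal one. Its exon was included in 91.6, 82.6, 100 and 80.0% in the NT samples and 77.6, 67.6, 66.7 and 66.7% in the R6/2 samples. NT replicate 4 rested on 5 reads and lay close to R6/2 replicate 1 (difference -18.9 percentage points, adjusted p = 0.046). Inclusion of the exon of Kcnab2, a potassium channel beta subunit gene, went from 100% ± 0 to 95.8% ± 3.06 (SD, n = 4 per genotype; adjusted p = 0.046). The isoform without this exon held only 13 reads over all striatal samples, all of them in R6/2 samples.

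Exons of Gpm6b, Sirt2 and Arpp21 reach into untranslated sequence or change an annotated coding end or start. In Gpm6b, a membrane proteolipid gene, an exon of 91 nt at chrX:166385391-166385481 that holds a stop codon was included more often, from 9.75% ± 2.57 to 22.2% ± 1.35 (SD, n = 4 per genotype; adjusted p = 0.035). Sirt2, a deacetylase gene of oligodendrocytes, had an exon of 47 nt at chr7:28767632-28767678 that went from 13.2% ± 3.15 to 6.10% ± 1.35 (SD, n = 4 per genotype; adjusted p = 0.035), and Arpp21 an exon of 38 nt in its 5′ UTR at chr9:112187470-112187507 that went from 6.13% ± 2.68 to 11.8% ± 1.34 (SD, n = 4 per genotype; adjusted p = 0.016).

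**Figure D5:**
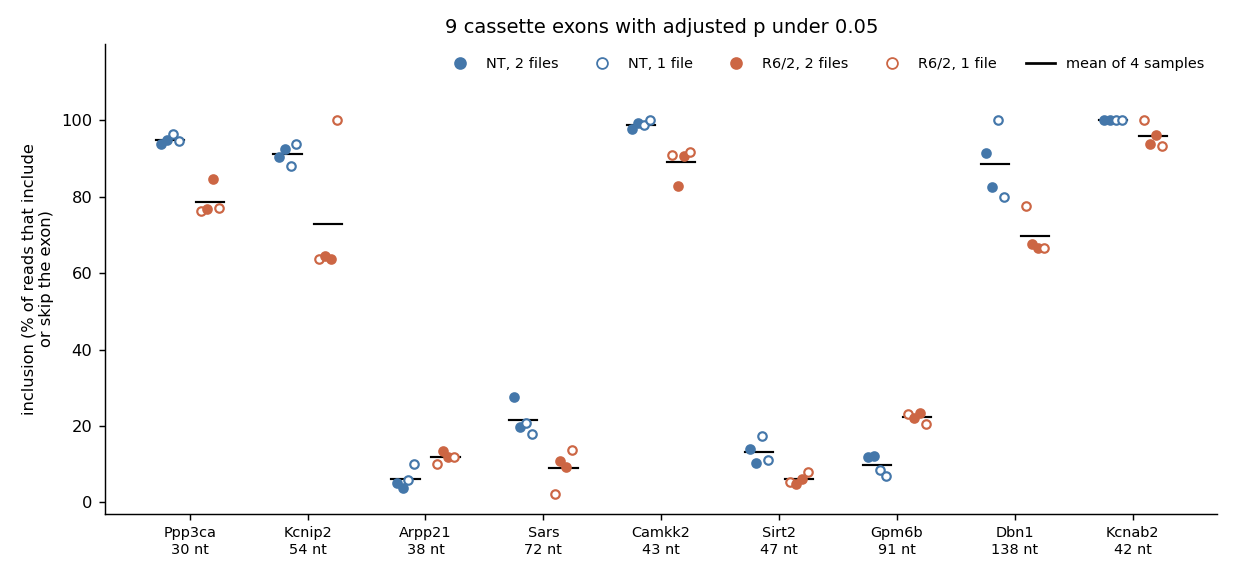
Inclusion (percent of reads) of 9 of the 11 cassette exons of adjusted p under 0.05 in each striatal sample, NT and R6/2 side by side, with filled points for samples of 2 files and open points for samples of 1 file. In 7 exons the R6/2 mean sits lower, and in Arpp21 and Gpm6b higher, with R6/2 replicate 4 at 100% for Kcnip2.

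Averaged over 840 exons covered in all samples, inclusion differed from the mean of the 8 samples by 1.21, 0.751, 0.362 and -0.365 percentage points in the NT samples and by -1.06, -0.104, -0.396 and -0.404 in the R6/2 samples. Within samples of 2 files and within samples of 1 file, both NT values lay above both R6/2 values. The mean was 0.490 ± 0.668 in NT and -0.490 ± 0.402 in R6/2 (SD, n = 4 per genotype), a difference of -0.980 percentage points (two-sided exact permutation test within numbers of files, p = 0.0556, the smallest that 36 arrangements can give). It was -0.728 in samples of 1 file and -1.23 in samples of 2 files. Permuted over all 8 samples, p was 0.0571. Known isoforms alone enter these values, so skipping of exons that are not annotated as cassette exons does not.

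The same model over both regions put the striatal genes beside the cortex of R6/2 and NT mice. Of the lower striatal genes, 277 were tested in this fit, and 262 had a log2 fold change below 0 in the cortex (3664 of 7388 over all tested genes). In the cortex 79 of them were lower by the test, where 185 of 7388 genes (2.50%) were lower in all, and none was higher. Their median log2 fold change was -1.13 in the striatum and -0.71 in the cortex. Of the 38 higher striatal genes, 33 were above 0 in the cortex, 5 were higher by the test (28 of 7388 genes, 0.379%, in all) and 1 was lower, with medians of 0.99 and 0.41. Both sets were chosen by their striatal calls, which favours larger striatal values. The medians therefore do not compare the size of the effect between the regions. The effect itself differed between the regions in 3 of 7388 genes (0.0406%), with 431 at an unadjusted p under 0.05. This fit held no term for the mouse. The labels do not say whether striatal and cortical samples of the same number came from the same animal. Ccm2, a scaffold gene of the cerebral cavernous malformation complex, was at 209, 326, 202 and 172 CPM in NT striatum and at 54.6, 82.1, 99.6 and 56.5 CPM in R6/2 striatum, against 107 to 135 CPM in NT and 86.5 to 106 CPM in R6/2 cortex (difference of log2 fold changes -1.37 ± 0.25 (SE), adjusted p = 0.033). Marcksl1, an actin-regulating gene, rose in the striatum (0.80 ± 0.20, adjusted p = 0.021) and fell in the cortex (-0.83 ± 0.20, adjusted p = 0.024), with a difference of 1.63 ± 0.29 (adjusted p = 0.033). Lamp5 did not pass in the striatum (-0.41 ± 0.17, adjusted p = 0.19) but fell in the cortex (-2.13 ± 0.18, adjusted p = 1.7e-07), with a difference of 1.72 ± 0.25 (adjusted p = 0.0031). Other genes were not shown to differ between the regions.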

How the data were processed

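RNA of the striatum was sequenced with PacBio Iso-seq in 8 male mice, 4 per genotype. Per the study's methods, circular consensus reads were filtered by the authors for adapters and poly(A), aligned by minimap2 (2.17-r941 in the submitters' processing notes; build mm10), cleaned by TranscriptClean and annotated by TALON. RNA was treated with an exonuclease against uncapped transcripts and the cDNA amplified by PCR, so reads are not independent molecules. The values the authors deposited are counts: reads of each isoform, 815498 isoforms per file, without normalization or TALON's filter. Genotypes came from the labels. The meaning of the 2 files of 4 samples is not given in the sources used here beyond a mention of replicates in the labels. Gene counts of the 2 files differed by more than sampling noise (chi-square per degree of freedom 2.50 to 3.24) but by less than those of different samples (3.71 to 28.1), and the files were summed and counted as 1 sample.

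For each known gene the reads of its known, incomplete splice match (ISM), NIC and NNC isoforms were added up, by gene name (28 names had more than 1 ID). Genes were tested with edgeR 4.0.16 (R 4.3.3; TMM, filterByExpr, quasi-likelihood test) with genotype and number of files as terms and Benjamini-Hochberg adjustment over all tested genes at 0.05. Isoforms (at least 10 reads) and cassette exons (at least 10 reads with and without) were tested with diffSpliceDGE. Exons came from GENCODE M21 (mm10), whose isoforms matched 99.4% of known striatal reads. Mean inclusion was compared by exact permutation. Scripts were tested on simulated data. Python 3.11.15 with pandas 2.3.3 and matplotlib 3.10.9 served other steps. Alternatives were DESeq2 1.42.0, RLE size factors, other filters, isoform classes and terms, R1 files only, a fit over 16 samples, a replicate block and leaving out each sample; fits of samples of 1 or of 2 files alone, the F test over both forms of an exon and the lists without NT replicate 3 were added after seeing the data.

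The comparison and gene lists were chosen with earlier results of these data known. Named were the 12 largest rises and falls among called genes with at least 20 reads as the mean of the genotype with more and no overlap within numbers of files, up to 4 called genes per list by smallest p, projection neuron markers of the neuropeptide and cyclic nucleotide lists, Htt, Tardbp and Mettl3, up to 12 genes or exons for isoform usage and inclusion, and up to 6 per interaction. Other called members of a list are named for completeness, after their values were seen. Some genes and exons are not reported here.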

Additional observations from a re-analysis of the deposited data

Results flagged for a closer look

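In 21 of 236 groups of 4 samples looked at (8.90%), 1 sample lay apart from the other 3 by Dixon's criterion, which chance gives in about 1 of 20 groups (5%). Among NT samples, replicate 2 was the highest for Homer1 (133 CPM), Syndig1l (563 CPM) and Tef (198 CPM) and the lowest for Klf10 (17.3 CPM). NT replicate 4 was the highest for Drd2 (125 CPM) and Ppp1r9b (177 CPM) and the lowest for Camk4 (99.0 CPM), and NT replicate 1 held the only read of the Camkv isoform (0.103%). In NT replicate 3 the markers of ependyma and choroid plexus summed to 10562 CPM. Among R6/2 samples, replicate 1 was the lowest for Ciart (1.54 CPM) and the highest for inclusion of the Dbn1 exon (77.6%). Replicate 2 was the highest for Cacna1e (21.4 CPM) and the lowest for Ppp1r9b (35.0 CPM) and the Camkk2 exon (82.9%). Replicate 3 was the highest for Cnr1 (16.3 CPM), the Glb1 isoform (6.06%) and the Ppp3ca exon (84.6%) and the lowest for the Ppp3ca isoform without that exon (15.2%). Replicate 4 was the lowest for Cds2 (30.4 CPM) and the highest for the Kcnip2 exon (100%, 11 reads) and the sum of cortical excitatory markers (225 CPM).

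The genotype effect differed between samples of 2 files and of 1 file in 2 genes. Gm15772 was at 263, 186, 1655 and 1438 CPM in the NT samples and at 13.9, 564, 487 and 30.4 CPM in the R6/2 samples, so that the log2 fold change was 1.23 in samples of 2 files and -6.20 in samples of 1 file (difference 7.43 ± 0.47 (SE), edgeR adjusted p = 1.8e-05). Rps3a1 was at 44.2, 39.1, 1988 and 1574 CPM in the NT samples and at 1348, 665, 976 and 2026 CPM in the R6/2 samples (difference 4.38 ± 0.42, adjusted p = 0.00097). The log2 fold change of R6/2 against NT differed between striatum and cortex for Lamp5 (1.72 higher in the striatum), Marcksl1 (1.63 higher) and Ccm2 (-1.37).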

How the results depend on the processing

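The count of lower and of higher genes (293 and 38, 331 in all) depended on the model. It was 39 and 0 (39 in all) without the number of files as a term, 172 and 9 (181) with R1 files only, 452 and 155 (607) without a filter, 175 and 7 (182) with a replicate block, 55 and 0 (55) in samples of 1 file alone and 31 and 3 (34) in samples of 2 files alone. Unadjusted p values were under 0.05 for 760 genes without the term, for 638 in samples of 1 file alone and for 1187 in samples of 2 files alone. In the fit of samples of 1 or 2 files alone, 2 samples stood against 2. Higher genes numbered 80 with mean isoform length as the term, 19 without ISM isoforms and 79 with the genomic class added. Leaving out 1 sample gave 142 to 392 genes, 130 to 340 lower and 9 to 53 higher. With DESeq2, 265 were lower and 36 higher, of which 276 were among the 331. Isoform usage differed in 3 genes without the term, 8 with R1 files, 74 by a gene-level F test, 8 with known isoforms only and 11 with ISM added, and in 5 to 26 when 1 sample was left out. Cassette exons numbered 1 without the term, 1 with R1 files, 19 by an F test and 2 to 11 when 1 sample was left out. The region interaction had 1 gene without the term. The mean inclusion difference was -1.25 to -0.611 percentage points when 1 sample was left out. The log2 fold change of Mettl3 was -0.26 to 0.090 when 1 sample was left out, and its sign turned to 0.034 with the genomic class added, 0.049 without NT replicate 2, 0.090 without R6/2 replicate 2 and 0.23 in samples of 1 file alone. Fits of R1 files, of fewer samples or of fewer isoform classes hold less data by construction, and for the other shifts the cause was not tested.

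The deviations of same-numbered NT and R6/2 samples had correlations of 0.18, -0.38, 0.015 and -0.21. These were not set against other pairs of samples, so whether the numbers pair the samples was not tested. The replicate block left 182 genes, 20 genes for isoform usage and 9 cassette exons. Of 80 called genes that the naming rule took, 10 passed in every alternative that gave a value for them (19 to 21 each), Penk, Hrh3, Adcy5, Rgs9, Pde10a, Ppp1r1b and Gabrd among them. Depth limited rare genes most: Htt had 3 to 12 reads per sample, and inclusion of single exons rested on as few as 5.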
